A study of Homo sapiens with 6 samples.

Results

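MicroRNAs (miRNAs) known from muscle and mesenchymal cells were followed in HEK-293FT cells, a human embryonic kidney line that is neither muscle nor connective tissue. The assays are hsa-miR-1, hsa-miR-133a, hsa-miR-133b, hsa-miR-143, hsa-miR-145, hsa-miR-199a-3p and hsa-miR-214, written below without the species prefix. They were chosen by assay name and make up 7 of the 377 human miRNA assays on the card. The series compares 3 control samples with 3 samples in which TruB1, a pseudouridine synthase that modifies transfer RNA, was knocked down with small interfering RNA (siRNA). All 6 are the same cell line, the labels do not describe the control treatment further, and siRNA was delivered with Lipofectamine RNAiMAX. Each title carries a series number from 1 to 3, used here as the replicate number. No label says that the samples came from separate cultures, so p-values measure the spread between these samples, which may be technical. The level of TruB1 was not analysed here.

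Levels were read by quantitative PCR on TaqMan array cards, after reverse transcription of 1000 ng of total RNA. The threshold cycle (Ct) is the point, in a run of 40 cycles, where fluorescence passes a preset level. Abundant template gives a low Ct, and at full efficiency each cycle stands for a 2-fold step. A well that never crosses is undetermined and gives no level. The deposited normalized value is a ratio to U6 small nuclear RNA in the same sample, used below as log2. Each miRNA has 1 well per sample. There are no counts behind a Ct, so no counting interval applies, and the small number of samples limits the precision.

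An miRNA is cut from a hairpin precursor and guides Argonaute proteins to messenger RNAs that pair with its seed, bases 2 to 8. miR-1 and miR-133 are made from shared transcripts in skeletal and cardiac muscle, where miR-1 favours differentiation and miR-133 acts on myoblast growth and differentiation. miR-143 and miR-145 come from another shared transcript, abundant in smooth muscle and fibroblasts, where they support the contractile state. miR-199a and miR-214 are processed from an RNA transcribed antisense to a dynamin gene, active in mesenchyme.

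The targets of the 7 assays show which members can be told apart by sequence. They are given from 5′ to 3′ as in the deposited table, with the seed in capitals, and the muscle miRNA miR-206, for which no assay was analysed here, is added from RefSeq (GRCh38.p14) because it shares the seed of miR-1.
miR-1: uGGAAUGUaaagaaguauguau
miR-206: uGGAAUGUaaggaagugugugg
miR-133a: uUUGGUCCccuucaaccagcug
miR-133b: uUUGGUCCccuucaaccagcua
miR-143: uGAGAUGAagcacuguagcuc
miR-145: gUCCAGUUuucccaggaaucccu
miR-199a-3p: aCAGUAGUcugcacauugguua
miR-214: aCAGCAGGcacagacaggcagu

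miR-133a and miR-133b share the seed UUGGUCC and differ by G22A alone, counted from 1 at the 5′ end, which is the 3′ terminal base of both. They are the only members that share a seed with another assay on the card. miR-206 differs from miR-1 by A11G, A17G, A21G and U22G, all outside the seed. miR-199a-3p and miR-214 begin alike but their first 8 bases differ by U5C and U8G, so their seeds differ.

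Every assay target was identical to its RefSeq mature sequence in GRCh38.p14. miR-1 is encoded at chr20:62554351-62554372 (MIR1-1) and chr18:21829015-21829036 (MIR1-2). miR-133a lies beside both, at chr20:62564970-62564991 and chr18:21825712-21825733, with 10597 and 3281 bases between the mature sequences. In the RefSeq gene table MIR1-1HG spans the chromosome 20 sites, and both MIB1 and MIR133A1HG span the chromosome 18 sites. miR-133b is at chr6:52148988-52149009 within LINCMD1, and miR-206 lies 4565 bases away. miR-143 and miR-145 are at chr5:149428978-149428998 and chr5:149430661-149430683, inside CARMN, with 1662 bases between them. miR-214 is at chr1:172138816-172138837, 5716 bases from the miR-199a-3p of MIR199A2 at chr1:172144554-172144575, and DNM3 and DNM3OS span both. The miR-199a-3p sequence also lies at chr19:10817429-10817450 (MIR199A1, within DNM2) and, as miR-199b-3p, at chr9:128244745-128244766 (MIR199B, within DNM1), so this assay reads 3 loci together. The table used gives no exons for these genes, so exonic or intronic position is not given.

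Of the 42 member wells 24 were determined, all of them under Ct 35, and 18 were undetermined. The determined share, 57.1%, was close to the 56.0% of wells over all 377 assays. The earliest member well was miR-133a in control sample 3, at Ct 27.9. There it was later than 48.4% of the determined assays, near the middle of that card, and the other member wells lay between 28.4 and 33.3. The miR-17 cluster, highly expressed in HEK-293 cells and fixed as the marker of this background, was determined in all 6 samples for all 6 guide strands, from Ct 15.9 for miR-19b to 28.0 for miR-92a in knockdown sample 1. The liver marker miR-122 was undetermined in every sample. Of 6 blood markers on the card, miR-142-5p was undetermined in every sample and miR-451 was seen once, at Ct 35.9. miR-142-3p gave 31.0 to 32.8 in 5 samples, miR-150 was determined in 3 samples at 29.9 to 35.2, miR-223 gave 29.5 to 36.2 and miR-486, also made in muscle, 26.1 to 28.8 in all 6.

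**Figure D1:**
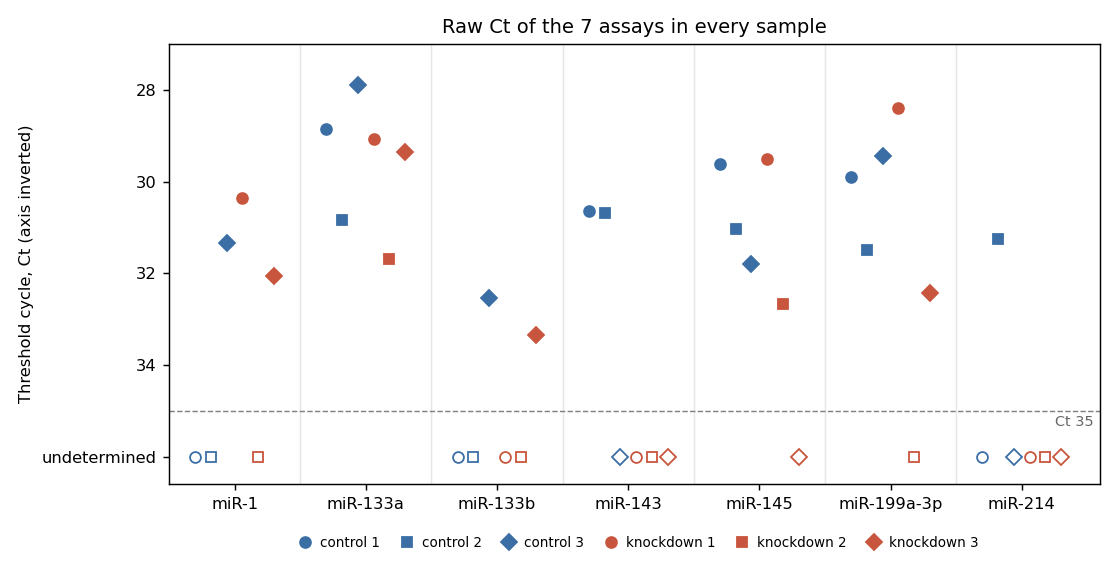
Raw Ct of each of the 7 assays (x axis) in every sample; the y axis is inverted so that higher points mean more template, filled symbols are determined wells and open symbols on the bottom row are undetermined wells. miR-133a has a value in all 6 samples, miR-145 and miR-199a-3p in 5, miR-1 in 3, miR-133b and miR-143 in 2 and miR-214 in 1.

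Only miR-133a was determined in every sample. Control samples 1, 2 and 3 gave Ct 28.9, 30.8 and 27.9, and the knockdown samples of the same numbers gave 29.1, 31.7 and 29.4. In each sample it was later than between 48.4% and 77.8% of the determined assays. Relative to U6 its log2 level was -14.12, -16.87 and -15.74 in control and -14.20, -16.24 and -16.10 in knockdown. The groups overlapped throughout, and both samples of series 2 were the lowest. Control samples averaged -15.58 ± 1.38 (SD, n = 3) and knockdown samples -15.52 ± 1.14 (SD, n = 3), values that differ by far less than either SD.

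The level of miR-133a followed the series number more than the knockdown. Relative to the mean Ct of the 157 miRNA assays under Ct 35 in all samples, its log2 level was -2.99 and -2.89 in control and knockdown of series 1, -4.25 and -3.99 in series 2, and -1.96 and -1.73 in series 3. On this scale the largest change within a series was 0.26, and 4 of the 161 assays determined in all samples (2.48%) had a smaller one, the median assay having 0.86. The means of the 3 series spanned 2.28, a wider range than the median of 1.15 over the same assays, and 14 assays had a wider one. The reference affects this order: series 3 was highest on this scale, while relative to U6 series 1 was highest. The U6 mean came from 2 to 4 determined wells per card, with a span of up to 2.77 cycles in control sample 1.

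**Figure D2:**
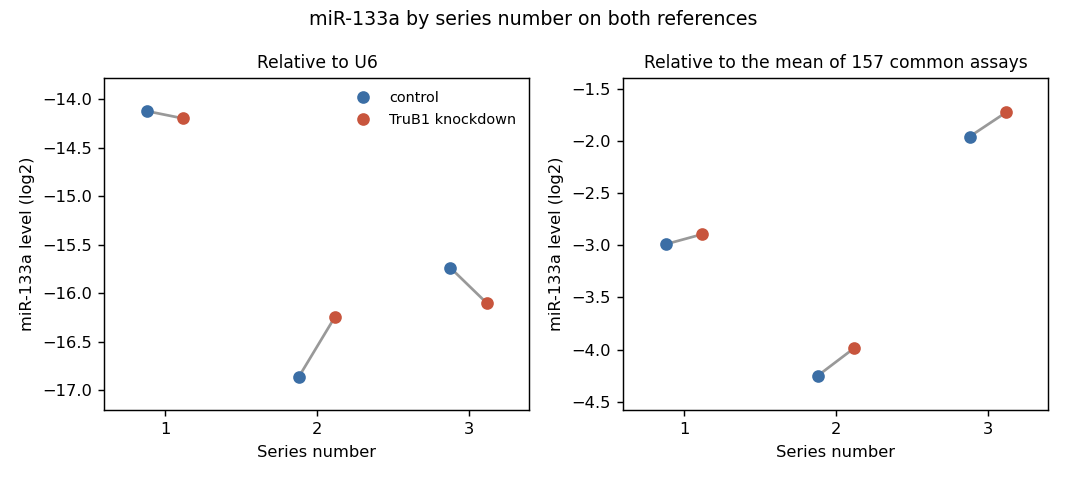
Log2 level of miR-133a by series number, relative to U6 (left) and to the mean of 157 commonly detected assays (right), 1 point per sample, with lines joining the control and knockdown samples of a number. On the right the control and knockdown points of a series lie within 0.26 of each other while the series lie from -4.25 to -1.73.

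The patterns most like that of miR-133a were found by Pearson correlation of Ct minus the common mean over the 6 samples. They were those of miR-31 (r = 0.97), miR-186 (r = 0.96) and miR-210 (r = 0.94), the last known as the miRNA induced by hypoxia. These are descriptions of 6 points that share cards, and the best of 160 assays, of which 31.2% exceeded 0.5. In raw Ct, miR-31 was lowest in control sample 3 (22.2) and highest in knockdown sample 2 (25.7), the same samples as miR-133a. Raw Ct includes the shift of the whole card, and knockdown sample 2 also had the latest common mean (27.7). On the scale of the correlation miR-133a was instead lowest in control sample 2 (-4.25) and highest in knockdown sample 3 (-1.73).

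miR-133b was determined only in series 3, at Ct 32.5 in control and 33.3 in knockdown. In these samples miR-133a crossed 4.65 and 3.98 cycles earlier. miR-133b was undetermined in the other 4 samples, among them control sample 1 and knockdown sample 1, where miR-133a was at 28.9 and 29.1. Wells of miR-133a at nearly the same raw Ct (29.4 in knockdown sample 3) were thus found with and without a Ct for miR-133b. The cards differed, with a common mean Ct of 26.2 in knockdown sample 1 and 27.6 in knockdown sample 3. Relative to the common mean, miR-133a was highest in series 3, at -1.96 in control and -1.73 in knockdown. In series 1 it was at -2.99 and -2.89. Each group had a single miR-133b value, so no test was made.

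miR-1, encoded beside miR-133a at both loci, had a Ct of 31.3 in control sample 3, 30.4 in knockdown sample 1 and 32.1 in knockdown sample 3. It was undetermined in control samples 1 and 2 and in knockdown sample 2. Where it was determined miR-133a was as well, and miR-1 crossed 3.45 (control 3), 1.29 (knockdown 1) and 2.71 cycles (knockdown 3) after it. The gap was thus widest in the control sample, but with 1 control value against 2 it was not tested. Within series 3, relative to U6, miR-1 was 1.30 and miR-133b 1.23 times as high in knockdown as in control, and miR-133a 0.777 times. The median assay of series 3 changed by -0.49 on the log2 scale. The changes of miR-1 (0.38) and miR-133b (0.30) exceeded those of 87.2% and 85.1% of the assays. That of miR-133a (-0.36) lay near the middle, with 54.8% lower.

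The partners miR-143 and miR-145 were found together in control samples 1 and 2 alone. miR-143 gave Ct 30.6 and 30.7 there and was undetermined in control sample 3 and in every knockdown sample. miR-145 gave 29.6, 31.0 and 31.8 in the 3 control samples in order of number, 29.5 and 32.7 in knockdown samples 1 and 2, and was undetermined in knockdown sample 3. In control sample 1 miR-143 crossed 1.02 cycles after miR-145, and in control sample 2 it crossed before it, at -0.35 cycles. The order of the partners therefore differed between 2 control samples. In 3 samples miR-145 was determined without miR-143, and in no sample was miR-143 determined without miR-145.

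Relative to U6, miR-145 had a log2 level of -14.88, -17.06 and -19.64 in the 3 control samples. Knockdown samples 1 and 2 were at -14.63 and -17.22. Control sample 3, the lowest value, has no determined knockdown partner. Within series 1 and 2 the knockdown was 1.19 and 0.896 times the control, close to no change in either direction, while the median changes of all assays were -0.17 and 0.30 on the log2 scale.

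miR-199a-3p and its neighbour miR-214 were determined together once, in control sample 2, at 31.5 and 31.3 cycles. That was the only Ct for miR-214. miR-199a-3p gave 29.9, 31.5 and 29.5 in the 3 control samples, 28.4 and 32.4 in knockdown samples 1 and 3, and was undetermined in knockdown sample 2. In control sample 2, where miR-214 was seen, miR-199a-3p had its latest control Ct. The opposite arm of the hairpin, miR-199a-5p, was determined in knockdown sample 1 alone, at 31.6, the sample with the earliest miR-199a-3p. The corresponding arm of MIR199B, miR-199b-5p, was undetermined in all samples.

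miR-199a-3p changed in opposite directions in the series where both samples gave a Ct. Relative to U6 its log2 level went from -15.17 to -13.52 in series 1, 3.14 times the control, and from -17.30 to -19.17 in series 3, 0.273 times the control. Among all assays of the same series, 95.5% had a lower change in series 1 and 8.51% in series 3. Relative to the common mean the changes were 1.82 and -1.28, also opposite in sign. The spread of miR-199a-3p in knockdown (-16.35 ± 4.00, SD, n = 2) exceeded that in control (-16.67 ± 1.30, SD, n = 3).

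**Figure D3:**
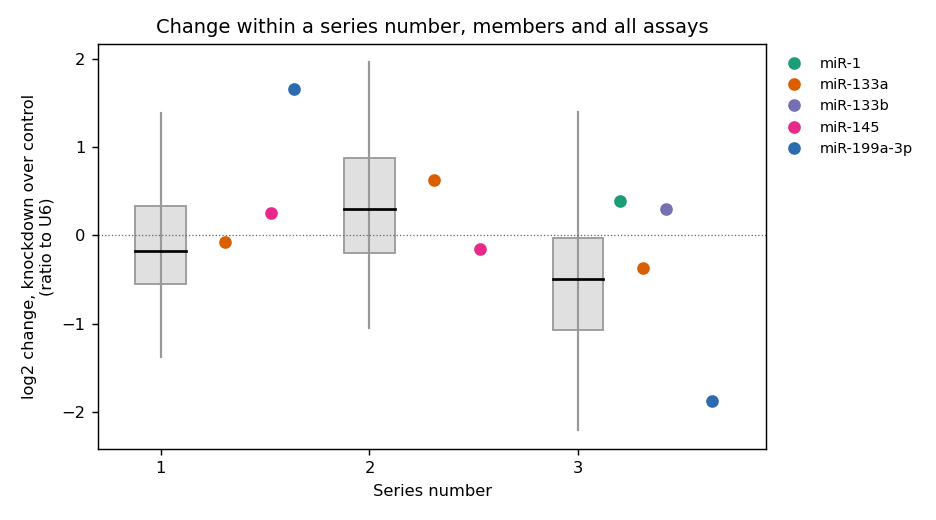
Log2 change from control to knockdown within each series number, as ratio to U6; coloured points are the members with both wells determined, grey boxes the quartiles of all assays of that series with the median as a line, and whiskers run from the 5th to the 95th percentile. miR-199a-3p lies at 1.65 in series 1 and -1.87 in series 3, while miR-133a and miR-145 stay between -0.36 and 0.62.

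Knockdown was compared with control for 195 assays in limma, each with a Ct under 35 in 3 or more samples and at least 2 determined wells per group. miR-133a, miR-145 and miR-199a-3p passed this filter; miR-1, miR-133b, miR-143 and miR-214 did not and are described by their wells only. None of the 3 passed an adjusted p of 0.05 (0 of 3, against 0% of all 195 assays), and none had an unadjusted p under 0.05 (again 0% of the 195). The log2 fold change relative to U6 was 0.06 for miR-133a (SE 1.46, 95% interval -2.82 to 2.94, limma adjusted p = 0.999). It was 1.27 for miR-145 (SE 1.65, interval -1.99 to 4.52, limma adjusted p = 0.999), with the undetermined knockdown sample 3 missing from the fit. It was 0.32 for miR-199a-3p (SE 1.66, interval -2.95 to 3.59, limma adjusted p = 0.999), with knockdown sample 2 missing. These intervals include changes of several fold in either direction, so an effect of that size was not detectable in this fit. The intervals with series number as the replicate block, given below, were narrower. The median over all 195 assays was -0.10, with quartiles of -0.39 and 0.19.

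With the 157 common assays in place of U6 as reference, the log2 fold change was 0.54 for miR-145, 0.65 for miR-199a-3p and 0.20 for miR-133a (limma adjusted p = 0.991 for each). Relative to U6, the log2 fold change of miR-145 went from 1.27 to 0.05 without control sample 3. The median of all assays went from -0.10 to -0.74 in that fit, and its part in the change of miR-145 was not tested. A fit relative to U6 with series number as the replicate block also gave 0.05 for miR-145 (95% interval -1.29 to 1.38), from series 1 and 2 only. With the block miR-133a was at 0.06 (interval -0.97 to 1.09) and miR-199a-3p at -0.11 (interval -2.28 to 2.06), from series 1 and 3. In this fit miR-145 and miR-199a-3p had 1 residual degree of freedom each, so their intervals drew largely on the spread of other assays. The changes of miR-199a-3p behind its value were 1.65 in series 1 and -1.87 in series 3. None of the 3 passed an adjusted p of 0.05 with the block either (0% of 189 assays; limma adjusted p = 0.99 for each). For unadjusted p under 0.05 the blocked background was 5.29%, and 0 of the 3 members were among those assays. Signs also turned for other members: miR-133a was -0.58, -0.02 and -0.60 without control sample 2, control sample 3 and knockdown sample 1, and miR-199a-3p -0.11 without control sample 2. The median of all assays in these fits was -0.12, -0.74 and -0.81 in the same order, against -0.10 with all samples.

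**Figure D4:**
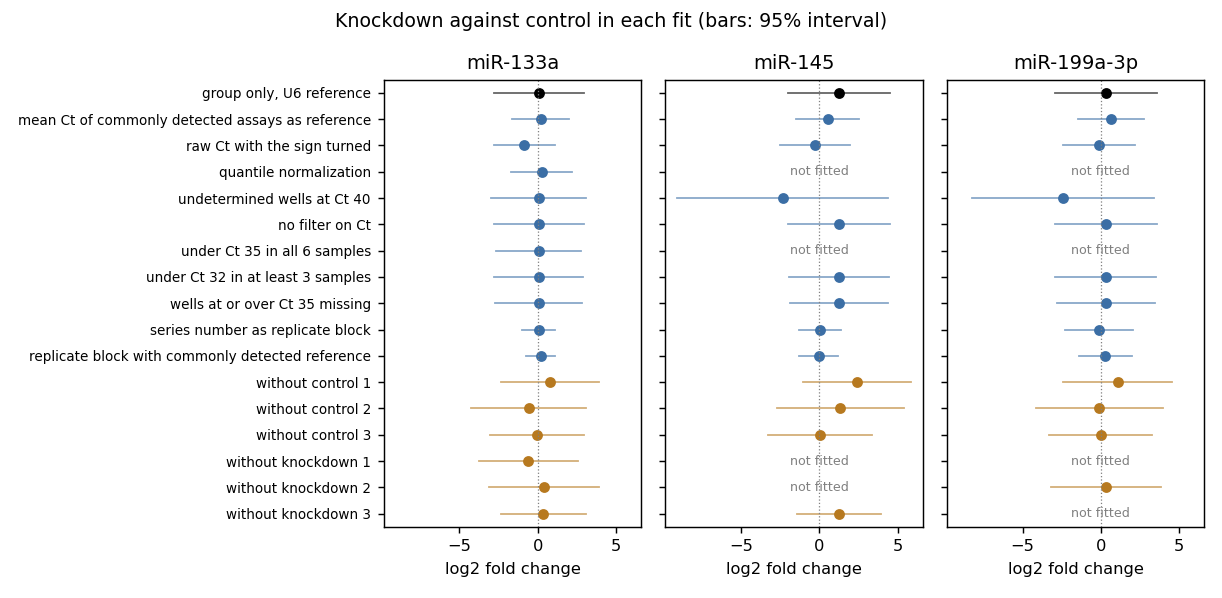
Log2 fold change of knockdown over control (x axis) for the 3 members that could be tested, in each fit (rows), with 95% intervals as bars; black is the fit with group only and U6 as reference, blue other settings and brown fits without 1 sample. Every interval crosses 0, and the blocked fits have narrower intervals than the fit with group only, -0.97 to 1.09 against -2.82 to 2.94 for miR-133a.

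Partner differences within a card need no reference, but for none of the 4 partner combinations did each group have 2 samples with both assays determined. The combinations were found together in 3 samples for miR-1 with miR-133a, in 2 for miR-133a with miR-133b, in 2 for miR-143 with miR-145 and in 1 for miR-199a-3p with miR-214. No change of a partner difference between groups was therefore tested.

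More member wells were determined in control than in knockdown. In control 14 of 21 member wells had a Ct (66.7%), and in knockdown 10 of 21 (47.6%); over all assays the shares were 56.3% and 55.6%. Under Ct 32 the members had 13 of 21 wells in control and 6 of 21 in knockdown (61.9% and 28.6%), and all assays 49.2% and 44.7%. By sample, 4, 5 and 5 members were determined in the control samples and 4, 2 and 4 in the knockdown samples, in order of number, so knockdown sample 2 held the lowest number. Within series numbers, 5 member wells were determined in control and not in knockdown (miR-143 in series 1 and 2, miR-145 in series 3, and miR-199a-3p and miR-214 in series 2). The reverse was found once, for miR-1 in series 1. Over all assays the same counts were 71 and 63 of 1131. The 5 belong to the smooth muscle and mesenchymal members, and the single reverse well to a muscle member. Other muscle and mesenchymal assays, listed further below, went both ways. miR-199a-5p and miR-22 had a Ct in knockdown only in series 1. miR-486-3p, miR-490 and miR-155 had one in control only in series 1, 2 and 3 respectively. miR-208b and miR-499a-5p were each found in control only in a series and in knockdown only in another. The split among the members was not tested.

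These wells lay at the Ct where undetermined partners became common on all cards. All 5 had a control Ct between 30 and 32. Of the 8 member control wells in that window 5 (62.5%) had an undetermined knockdown partner, against 23 of 115 (20.0%) for the other assays. The window is the one that holds all 5, so its member share is raised by that choice. Without a window it was 5 of 14 determined member control wells, against 71 of 637 over all assays. That comparison is not matched on Ct. The 637 include 219 wells under Ct 26, of which 0.913% had an undetermined knockdown partner, and the earliest member control well was at 27.9. Series 2 held 3 of the 5, and wells that share a card are not independent. Over all 377 assays the share of undetermined knockdown partners was 4.17% for control wells at 28 to 30, 22.8% at 30 to 32 and 38.5% at 32 to 34. In the reverse direction 11.8% of knockdown wells at 30 to 32 had an undetermined control partner, 1 of 2 for the members and 13 of 117 (11.1%) for the other assays. Knockdown samples crossed later as a whole, by 0.314, 1.12 and 1.69 cycles in series 1, 2 and 3 for the commonly detected assays. The part of this shift in the members' undetermined wells was not tested.

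**Figure D5:**
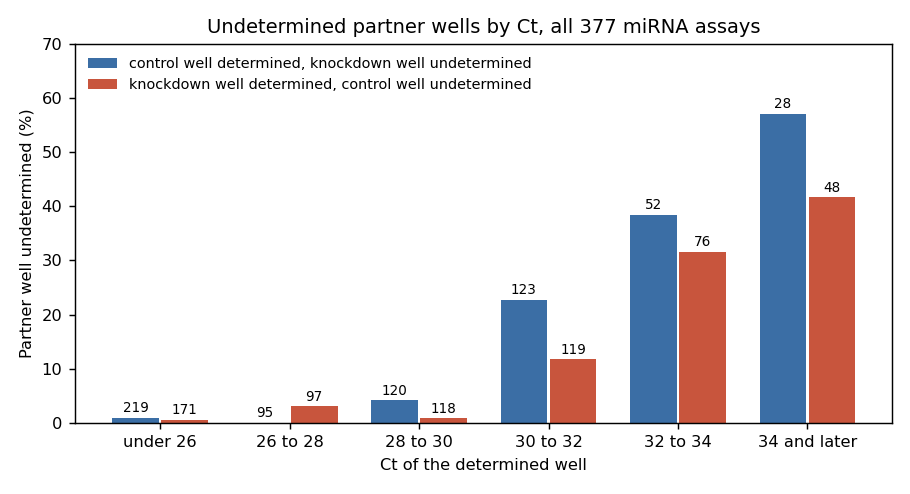
Share of partner wells that were undetermined (y axis, percent) by the Ct of the determined well (x axis), for all 377 miRNA assays within a series number; blue bars start from control wells, red bars from knockdown wells, and the number above each bar is the wells behind it. Few partners are missing below Ct 30 (at most 4.17%), and 22.8% and 11.8% are missing at 30 to 32, where the 5 member wells with a Ct in control and none in knockdown lay.

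Of 15 other muscle and mesenchymal miRNAs listed for comparison 14 had an assay (all but miR-206), 5 of which were determined in all samples and 2 in none. The heart muscle miRNAs were sparse like miR-1: miR-208a was undetermined throughout, while miR-208b and miR-499a-5p were determined in 2 samples each, 1 control and 1 knockdown. miR-10b, encoded in a HOX cluster, was the earliest of this list, at 23.4, 23.7 and 22.2 in control and 23.0, 24.2 and 24.4 in knockdown. miR-140-5p, known from cartilage, gave 23.6, 24.8 and 23.9 in control and 24.3, 25.8 and 25.8 in knockdown. miR-21, abundant in fibroblasts and many tumours, gave 25.9, 27.6 and 27.4 in control and 26.8, 28.1 and 28.2 in knockdown. These 3 crossed in every sample before any well of miR-143, miR-145 or miR-214. Over the 6 samples the correlation with miR-133a, relative to the common mean, was 0.33 for miR-10b, 0.10 for miR-140-5p and -0.21 for miR-21, and 0.71 for miR-486, given as descriptions of 6 points that share cards.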

How the data were processed

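Levels of miRNAs were measured on TaqMan array cards in 3 control and 3 TruB1 knockdown samples of HEK-293FT cells, grouped by title. The deposited raw values are Ct, a score in cycles with no fixed range, read on a 7900HT instrument per the labels' protocols; threshold and baseline settings are not given in the sources used here. The deposited normalized values are ratios to U6. Their arithmetic was recovered from the Ct as 2 to the power of mean U6 Ct minus assay Ct, to within 6.8e-06 (log2).

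The log2 ratio was fitted over all assays in limma 3.58.1 (R 4.3.3; lmFit and eBayes, two-sided, Benjamini-Hochberg adjustment), group as the only term, undetermined wells missing. The fit was also run on simulated data with the same spread for every assay. That run does not show how the fit performs with the unequal spread of the real assays. Series numbers were taken to pair the samples: over 161 assays, same-numbered samples correlated at 0.416, 0.527 and 0.625 in their deviations from the group means. Unlike-numbered samples of series 1 and 2 were also positive, at 0.25 (control 1 with knockdown 2) and 0.13 (control 2 with knockdown 1). Those between series 3 and the others ran from -0.54 to -0.34, so series 1 and 2 were set apart less clearly. Deviations from a group mean cancel within the group, so positive same-numbered values force negative ones elsewhere. The negative values are therefore not separate evidence of pairing. The numbers are those of the titles, but no label says what they stand for. That they pair the samples rests on the correlations of same-numbered samples. Members and lists were chosen with earlier results of these data known. Named are all members, listed assays sharing a hairpin or seed with a member, up to 4 more listed assays with the lowest mean Ct, the cell type markers, and the 3 assays most like a complete member. Alternatives covered the reference, undetermined and late wells, the block and left-out samples.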

Additional observations from a re-analysis of the deposited data

How the results depend on the processing

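No assay reached the adjusted threshold of 0.05 in any of the 17 limma fits, with 0 assays at an unadjusted p under 0.05 in the fit with group only and 10 with the block. The 3 tested members stayed above the threshold in each fit that included them, but their signs did not hold. Raw Ct without a reference gave -0.84 for miR-133a, -0.27 for miR-145 and -0.12 for miR-199a-3p, where the median of all assays was -1.0. Undetermined wells at Ct 40 gave -2.34 for miR-145 and -2.41 for miR-199a-3p, since the filled wells are knockdown wells; miR-1, fitted in that setting alone, was at 3.88, with filled wells mostly in control. With the replicate block miR-199a-3p was -0.11, while the block with the commonly detected reference gave 0.27 for it and -0.047 for miR-145. That reference without the block gave 0.54 for miR-145, 0.65 for miR-199a-3p and 0.20 for miR-133a. The block changed no call. Leaving out 1 sample gave -0.60 to 0.79 for miR-133a, 0.05 to 2.43 for miR-145 and -0.11 to 1.07 for miR-199a-3p. Where the sign turned without a sample, the cause was not tested. Without knockdown sample 1, miR-145 and miR-199a-3p had too few wells to fit, as did miR-145 without knockdown sample 2 and miR-199a-3p without knockdown sample 3. Quantile normalization and the filter of Ct under 35 in all 6 samples leave only miR-133a, at 0.25 and 0.06. Member wells detected were 24 at Ct under 35, 24 at any Ct and 19 at Ct under 32, where control held 13 and knockdown 6. Partner differences could be formed in both groups for all combinations only with undetermined wells at Ct 40, where they follow which wells are filled: 0.58 cycles for miR-133a minus miR-133b, -3.82 for miR-1 minus miR-133a, 2.98 for miR-143 minus miR-145 and 0.41 for miR-199a-3p minus miR-214. Single wells and late Ct limit every member value.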

Other observations

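Among the listed mesenchymal assays miR-22, a broadly expressed miRNA, was determined in knockdown sample 1 alone, at Ct 27.0, and undetermined in the other 5 samples. For comparison, 3.09% of knockdown wells at Ct 26 to 28 had an undetermined control partner over all assays. Knockdown sample 1 was also the only sample with a Ct for miR-199a-5p and had the most determined assays, 228 of 377.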
